A study of Mus musculus with 2207 samples.

Results

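C1ra, C1rb and C1s1 encode the serine proteases of the first component of complement in the mouse. These 3 genes were taken by name from the 52636 genes of the expression tables, and they were chosen by their values in neurons, which were higher in nuclei labelled Ehmt1 Δ/+ than in WT nuclei of both plate formats. That contrast is therefore described below without a test. C1ra (ENSMUSG00000055172.10) lies on the plus strand of chromosome 6 of mm10 from 124512405 to 124523443, C1s1 (ENSMUSG00000038521.17) on the minus strand from 124530345 to 124542359, and C1rb (ENSMUSG00000098470.1) on the plus strand from 124570294 to 124581171. The cluster spans 68.8 kb, with 6.90 kb between C1ra and C1s1 and 27.9 kb between C1s1 and C1rb.

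In the classical pathway C1q binds its target, C1r then activates itself and cleaves C1s, and C1s cleaves C4 and C2 so that C3 can be activated. In mice the genes of both proteases are duplicated, and C1rb and C1s2 are the close copies of C1ra and C1s1. In the brain, complement proteins that tag synapses for removal by microglia are known from development and disease, and C1q there is made mostly by microglia.

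Single nuclei were sorted from the frontal cortex of C57BL/6 mice of 14 weeks of age and measured by RamDA-seq, a full-length total RNA method with random priming. The 2207 nuclei fell into 6 pools, each from 3 mice and each holding 16.4% to 16.8% of the nuclei, and the deposited labels call 1664 of them neurons, 397 oligodendrocytes and the other 6.62% microglia. The 96-well plates held WT nuclei (Ehmt1+/+) and nuclei labelled Ehmt1 Δ/+, which carry a deletion of Ehmt1 on a single chromosome, with 518 neurons in all, of which 48.8% were WT. The 384-well plates held WT nuclei and nuclei labelled Ehmt1 Δ/+, both with the Ehmt1 iTg allele but without CamKII-CreER, nuclei labelled iTg (Ehmt1+/+ with the Ehmt1 iTg allele and CamKII-CreER) and nuclei labelled Ehmt1 Δ/+; iTg (the deletion, the iTg allele and CamKII-CreER). Of their 1146 neurons 24.9% were WT and 24% iTg, and Ehmt1 Δ/+ made up 26.7% and Ehmt1 Δ/+; iTg 24.4%. The iTg allele supplies FLAG-tagged GLP, the product of Ehmt1, after Cre recombination, and CamKII-CreER is known to act in excitatory neurons of the forebrain. By the labels every mouse, WT included, had been given tamoxifen when 3 weeks old, in 2 doses of 100 mg/kg. The text of the study describes the 384-well series as carrying CamKII-CreER, whereas the labels give WT and Ehmt1 Δ/+ nuclei none, and the labels were followed. Nuclei cannot be assigned to single mice from the labels. Each pool therefore counted as 1 replicate, although the pools differ in genotype and plate format. Where classes within pools are compared, p-values measure how far their difference varied from pool to pool. Between genotypes they measure how far the difference varied between plate formats.

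Levels are given in RPKM, reads scaled by the length of the gene and by all reads of the nucleus, averaged over all nuclei of a pool and class. Neurons held a median of 323273 to 397880 reads in every pool, while the glial medians were 441701 to 510639 reads in the 96-well plates and 39940 to 54877 in the 384-well plates. Detection in glia of the 384-well plates was limited by this depth. The labelled cell types carried their markers: Snap25 was at 62.99 to 131.1 RPKM in neurons, Cx3cr1 at 244.1 to 362.8 RPKM in microglia and Mog at 277.7 to 348.3 RPKM in oligodendrocytes. Snap25 was also at 1.22 to 51.7 RPKM in microglia and 0.651 to 41.3 RPKM in oligodendrocytes. The other neuron markers Syt1 and Rbfox3 reached at most 8.09 and 2.03 RPKM in glia. Outside their own types Cx3cr1 reached at most 0.708 RPKM and Mog at most 1.08 RPKM. Ehmt1 RNA was higher in the neurons with the deletion label, at 31.2, 31.7 and 33.9 RPKM in the 3 pools labelled Ehmt1 Δ/+ or Ehmt1 Δ/+; iTg against 18.7, 19.5 and 20.7 RPKM in the other 3, which goes against the direction of the label. These RPKM values are summed over all exons of Ehmt1 and not over the deleted exons alone. Genotypes are called by their labels throughout.

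C1ra and C1rb are nearly the same sequence, and this bears on every value below. Their coding sequences were identical at 2076 of 2118 aligned positions (98.02%), and those of C1s1 and C1s2 at 1974 of 2064 (95.6%) (GENCODE M21, mm10). The longest identical stretch of C1ra and C1rb lay in exon 5 of both, and the following 150 bases of it are the same at chr6:124516956-124517105 and at chr6:124574501-124574650, both on the plus strand.
C1ra and C1rb, exon 5, coding: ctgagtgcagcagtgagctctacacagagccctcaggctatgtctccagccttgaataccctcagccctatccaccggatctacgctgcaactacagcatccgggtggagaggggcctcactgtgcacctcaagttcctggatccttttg
A read of 75 bases from this stretch cannot be placed in either gene. In exon 11 the copies differed most, with 11 differing bases in 75, which are in capitals below (C1ra chr6:124522639-124522713, C1rb chr6:124580685-124580759, plus strand).
C1ra, exon 11, coding: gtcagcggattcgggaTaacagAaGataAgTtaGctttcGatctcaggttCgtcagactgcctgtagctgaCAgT
C1rb, exon 11, coding: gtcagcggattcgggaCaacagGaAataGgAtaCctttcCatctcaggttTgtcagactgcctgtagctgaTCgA
The same pair of windows is shown for C1s1 and its copy C1s2, which differed by 19 bases of 75 in their last exon (C1s1 exon 12 chr6:124531486-124531560, C1s2 exon 11 chr6:124625708-124625782, minus strand, written in the direction of the gene).
C1s1, exon 12, coding: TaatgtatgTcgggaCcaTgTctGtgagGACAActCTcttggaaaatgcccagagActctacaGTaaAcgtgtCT
C1s2, exon 11, coding: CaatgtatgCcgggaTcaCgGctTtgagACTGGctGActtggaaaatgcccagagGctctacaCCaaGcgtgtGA
Over all windows of 75 bases of the annotated transcripts, 40.1% of those of C1ra occurred in C1rb, 49.5% of those of C1rb occurred in C1ra, and 12.95% of those of C1s1 occurred in C1s2. None was shared between a C1r gene and a C1s gene.

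Many deposited values were not whole numbers of reads. A value was taken as whole reads when it came within 0.02 of a whole number after division by what 1 read is worth in that nucleus. Of the nuclei with C1ra above 0, 49.5% had a value that was not whole reads, against 55.5% for C1rb and 53.2% for C1s1. Over all genes of neurons the share of values that were not whole was 25.96% to 29.7% per pool, and for the neighbouring gene C1rl it was 29.6%. How fractions of reads arose is not given in the sources used here. C1rb was above 0 in 0 nuclei without C1ra, and in 47% of the nuclei with both genes the fraction of a read was the same in both. Of the C1s1 values that were not whole, 99.3% came from nuclei with C1s2 or the antisense gene Gm16567 above 0, against 60.3% of the whole values. Gm16567 overlaps C1s1 on the other strand (124530911 to 124542310), and reads from the pair cannot be told apart without strand. C1rb was thus never seen apart from C1ra, and the levels of the copies are uncertain.

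The sequence around the RefSeq start sites was examined because the 3 genes lie in 1 cluster. RefSeq promoters (GRCm38.p6, 250 bases before to 50 after the start) were found for the 3 genes, C1s2 and C1rl, with 2 starts for C1s1. The alignable part of the C1ra and C1rb promoters was identical at 92.7% of 150 columns. Both held the letters TTCNNNGAA, the form of a gamma interferon activated site, which are in capitals in these windows (C1ra chr6:124512643-124512669, C1rb chr6:124570301-124570327, plus strand).
C1ra, 27 bases: aaatgcttcaTTCCCTGAAacattcct
C1rb, 27 bases: aaatgcttcaTTCCCTGAAacatttct
The match lay at position 33 counted from the RefSeq start of C1ra and at position -119 counted from that of C1rb. The GENCODE genes begin further upstream, at 124512405 (C1ra) and 124570294 (C1rb), so by those coordinates both matches lie inside the genes. These letters occurred in 8.30% of 32851 promoters of the same length. Neither C1s1 promoter held them, nor TATAAA (13.6% of promoters), CCAAT (37.4%) or the letters of an interferon-stimulated response element (3.44%), each searched on both strands. The 250 bases before the upstream start of C1s1 (chr6:124542360-124542609, minus strand) are given for comparison.
C1s1, before the start: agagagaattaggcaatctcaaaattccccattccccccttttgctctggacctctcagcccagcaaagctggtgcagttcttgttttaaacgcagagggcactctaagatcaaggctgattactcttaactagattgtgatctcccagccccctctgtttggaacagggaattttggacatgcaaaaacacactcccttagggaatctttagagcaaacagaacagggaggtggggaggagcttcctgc
A match of letters is a description and not a binding site.

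Among the 3 labelled cell types, C1ra, C1rb and C1s1 were found mostly in neurons. No nuclei were labelled as astrocytes, oligodendrocyte precursors, endothelial or mural cells or fibroblasts, so neurons could not be compared with these. C1ra had a value above 0 in 19.2% of 1664 neurons (exact 95% binomial confidence interval 17.3% to 21.1%), in 6 microglia (4.11%, 1.52% to 8.73%) and in 0 of 397 oligodendrocytes. Taken as under 3 counts, the last allows up to 0.756% of oligodendrocytes. C1s1 was found in 15.8% of neurons (14.1% to 17.6%), 1 microglial nucleus (0.685%, 0.0173% to 3.76%) and 5 oligodendrocytes (1.26%, 0.410% to 2.91%). C1rb was found in 16.6% of neurons (14.9% to 18.5%), in 6 microglia and in 0 of 397 oligodendrocytes. The intervals cover counting error only, and the nuclei of a pool share mice.
In neurons of the 96-well plates C1ra had a mean level of 0.899 RPKM (WT) and 2.03 RPKM (Ehmt1 Δ/+). In the 384-well plates it was 1.10 RPKM in WT, 2.36 in Ehmt1 Δ/+, 1.70 in iTg and 0.980 in Ehmt1 Δ/+; iTg. In oligodendrocytes C1ra and C1rb were listed at 0 in every pool. In microglia C1ra was at 0.568 RPKM (3 of 36 nuclei) in WT and 1.28 RPKM (3 of 32) in Ehmt1 Δ/+ of the 96-well plates and was listed at 0 in the 4 pools of the 384-well plates. There the count of 0 allows a share of up to 13.04% to 18.8% in a single pool, above the 8.33% (WT) and 9.38% (Ehmt1 Δ/+) of the deeper plates. These limits hold for each pool alone and not for the 4 pools together, and they leave the lower depth aside. The level in neurons lay above that in oligodendrocytes in each pool, and above that in microglia in each pool.
The level in neurons was compared with both glial types by limma on log2(mean RPKM + 0.1), with the pool as a block over 6 pools and adjustment over 25916 genes. Fold changes of low genes are understated on this scale. Each member passed the filter on detection, 10% of the nuclei of a cell type in 3 or more pools, through neurons alone, so a neuronal excess was built into its entry and the differences are given without a p. C1ra and C1rb are at 0 in oligodendrocytes, where the size is set by the 0.1 that was added and is no fold change. Against oligodendrocytes the log2 difference was 2.94 for C1s1 (standard error 0.33), 3.92 for C1ra (0.56) and 2.79 for C1rb (0.37), where 38.7% of the genes tested were called higher in neurons and 12.6% lower. Against microglia it was 3.28 for C1s1 (0.33), 2.84 for C1ra (0.56) and 2.13 for C1rb (0.37), beside 44.8% called higher and 19.3% lower. A neuronal excess is thus common among all genes, and the median gene was higher in neurons by 0.61 against oligodendrocytes and 0.85 against microglia. After scaling of all classes to the same median the differences were 2.35 for C1s1, 3.43 for C1ra and 2.35 for C1rb against oligodendrocytes and 2.83, 2.44 and 1.77 against microglia. With no filter the 6 differences had the same size, and no p is given there either, since the genes were chosen by values in neurons. In the 96-well pools alone, where glia were sequenced more deeply, the difference from microglia was 0.60 for C1ra (adjusted p = 0.233) and 0.74 for C1rb (adjusted p = 0.126) by limma and was not called.
Microglia and oligodendrocytes were not called different for any of the 3 genes by limma. The log2 difference of microglia from oligodendrocytes was -0.34 for C1s1 (0.33, adjusted p = 0.448), 1.09 for C1ra (0.56, adjusted p = 0.143) and 0.66 for C1rb (0.37, adjusted p = 0.185), beside 21.3% of genes called higher and 21.2% lower. In the 96-well pools alone C1ra (3.26, adjusted p = 0.00710) and C1rb (1.97, adjusted p = 0.0172) were called higher in microglia. These values rest on 6 nuclei.
Shares depend on depth, so each nucleus was also thinned to 298761 reads in the 96-well and 48585 reads in the 384-well plates. Shallower nuclei were left out, which left 6, 11, 6 and 7 microglia in WT, iTg, Ehmt1 Δ/+ and Ehmt1 Δ/+; iTg of the 384-well plates. The share of neurons with C1ra then ranged from 7.90% to 30.8% over the 6 pools, that with C1s1 from 5.27% to 23.1% and that with C1rb from 4.08% to 27.97%. The thinned share of oligodendrocytes was at most 3.87% for C1s1, and that of microglia at most 9.20% for C1ra. The neuronal share was the larger in 6 of 6 pools for each gene and both glial types, by 7.74 to 14.3 percentage points on average. The exact permutation test over pools (two-sided, 64 sign changes) gave p = 0.03125 for each, the smallest value that 6 pools allow, and 0.03125 after adjustment over the 6 comparisons. The Ehmt1 Δ/+ pools among them are those in which the members were chosen to be high, so this p is not read as support.

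**Figure D1:**
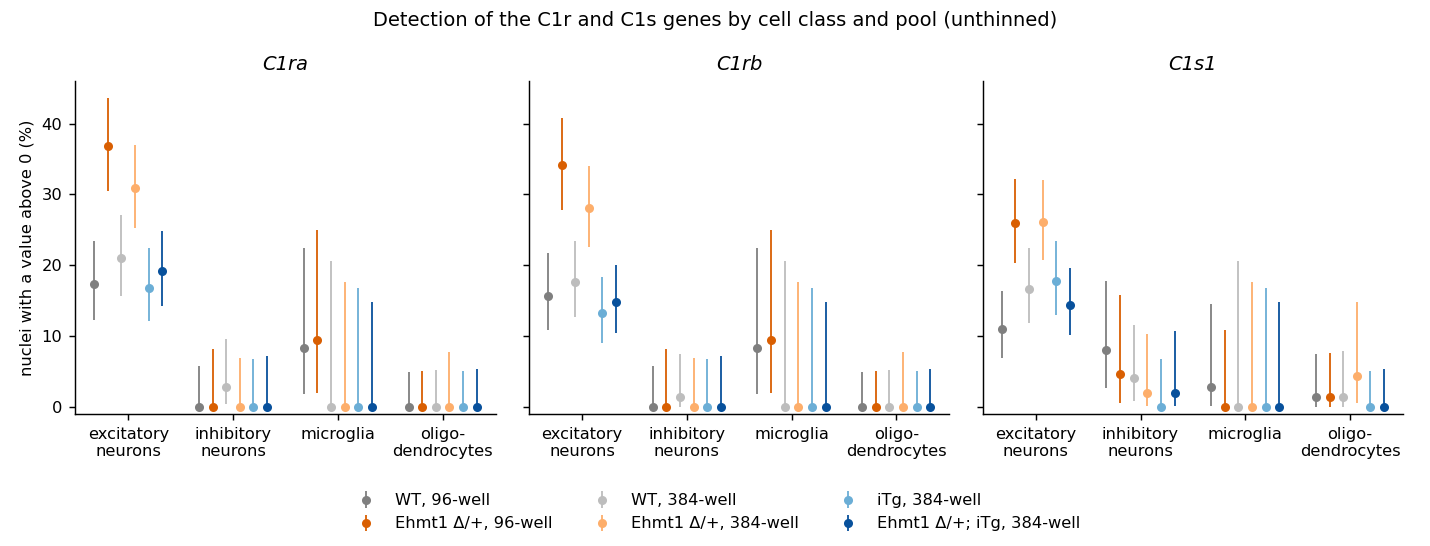
The share of nuclei with a value above 0 (percent, unthinned) is plotted for C1ra, C1rb and C1s1 in excitatory and inhibitory neurons, microglia and oligodendrocytes of the 6 pools. Points are shares and bars are exact 95% binomial intervals. C1ra and C1rb lie at 0 in oligodendrocytes of every pool and are highest in excitatory neurons labelled Ehmt1 Δ/+, at 36.8% and 30.8% for C1ra.

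Among neurons the 3 genes were carried by excitatory neurons. Neurons were called excitatory where Slc17a7, which encodes a glutamate transporter of synaptic vesicles, had a larger value than Gad1, which encodes an enzyme that makes GABA, and inhibitory in the opposite case. By this rule 79.6% of neurons were excitatory and 20.01% inhibitory. C1ra was above 0 in 23.9% of 1324 excitatory neurons (exact 95% interval 21.7% to 26.3%) and in 2 inhibitory neurons (0.601%, 0.0728% to 2.15%). For C1rb it was 20.8% of excitatory neurons (18.7% to 23.1%) and 1 inhibitory neuron, and for C1s1 18.96% (16.9% to 21.2%) and 12 inhibitory neurons (3.60%, 1.88% to 6.21%).
In excitatory neurons C1ra was at 1.19 and 2.44 RPKM in WT and Ehmt1 Δ/+ of the 96-well plates, and at 1.47, 2.13, 2.85 and 1.19 RPKM in WT, iTg, Ehmt1 Δ/+ and Ehmt1 Δ/+; iTg of the 384-well plates. In inhibitory neurons it was listed at 0 in 5 pools and at 0.0619 RPKM in WT of the 384-well plates, where both positive nuclei lay. C1s1 was at 0.697, 2.48, 0.897, 0.814, 2.90 and 0.631 RPKM in excitatory neurons of the same pools in the same order, and at 0.118 RPKM or below in inhibitory neurons of each pool. The classes did not overlap for either gene, but how often this holds over all genes was not counted, so nothing is read from it.
The excess in excitatory neurons was 3.18 for C1s1 (standard error 0.38), 4.12 for C1ra (0.23) and 3.06 for C1rb (0.18) on the log2 scale by limma over 25588 genes, of which 19.2% were called higher in excitatory and 21.3% higher in inhibitory neurons. The members entered this fit through excitatory neurons alone, so no p is given for it, and where inhibitory neurons are listed at 0 the size is set by the 0.1 that was added. Without the filter the same values of the members enter, so no p is given for that fit either. With the 96-well pools alone the excess of C1s1 was 3.14 and was not called (adjusted p = 0.115). Median depth was 333929 to 406930 reads in excitatory and 246009 to 369384 reads in inhibitory neurons over the 6 pools, with inhibitory neurons the deeper class in both 96-well pools and the shallower in the 4 pools of the 384-well plates.
The few inhibitory neurons with C1s1 were 4 with Sst as their leading marker (3.67% of that class), 0 of 74 with Pvalb, 2 of 39 with Vip and 6 of 83 with Lamp5. The count of 0 allows a share of up to 4.05% in the Pvalb class.

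The members also differed between excitatory neurons classed by layer markers. The 4 classes were set by the highest score of marker lists that include Cux2 for layer 2/3, Rorb for layer 4/5a, Fezf2 for layer 5 and Foxp2 for layer 6, and held 29.2%, 25.6%, 22.9% and 22% of excitatory neurons in this order. C1ra was above 0 in 34.8% of layer 4/5a nuclei (exact 95% interval 29.7% to 40.1%), in 25.8% of layer 6 (20.8% to 31.2%), in 18.6% of layer 2/3 (14.9% to 22.8%) and in 16.8% of layer 5 (12.8% to 21.5%). C1s1 was above 0 in 24.1% of layer 6, 20.9% of layer 4/5a, 18.5% of layer 5 and 14.0% of layer 2/3.
The mean level of C1ra in layer 4/5a was 1.75 and 3.54 RPKM in WT and Ehmt1 Δ/+ of the 96-well plates, and 3.00, 3.53, 4.59 and 2.44 RPKM in WT, iTg, Ehmt1 Δ/+ and Ehmt1 Δ/+; iTg of the 384-well plates. In layer 5 the same pools were at 0.169, 1.23, 0.7997, 0.705, 1.21 and 1.23 RPKM. Layer 4/5a lay above layer 5 in each pool for C1ra, and likewise for C1rb and C1s1. Layer 6 had the widest spread for C1ra, from 0.279 RPKM in Ehmt1 Δ/+; iTg to 4.57 RPKM in Ehmt1 Δ/+ of the 384-well plates.
Against the mean of the other 3 classes, layer 4/5a was higher by 0.96 for C1s1 (standard error 0.21, adjusted p = 0.00231), 1.28 for C1ra (0.33, adjusted p = 0.00709) and 1.31 for C1rb (0.27, adjusted p = 0.00132) on the log2 scale by limma over 26560 genes, of which 13.1% were called higher and 14.6% lower in layer 4/5a. Layer 5 was lower, at -0.75 for C1s1 (0.21, adjusted p = 0.0244), -1.15 for C1ra (0.33, adjusted p = 0.0258) and -1.17 for C1rb (0.27, adjusted p = 0.00671), beside 9.12% of genes higher and 5.35% lower. The fit without the replicate block, which ignores that classes of a pool share mice, lost the call of C1s1 in layer 4/5a (adjusted p = 0.192) and of C1s1, C1ra and C1rb in layer 5 (adjusted p = 0.561, 0.122 and 0.0516 by limma). The layer 5 call of C1s1 was also lost in 4 and that of C1ra in 5 of the 6 fits that left out a pool, with adjusted p up to 0.0973 and 0.129 by limma.
Layers 2/3 and 6 were not called for any member. For C1ra the difference was -0.12 in layer 2/3 (0.33, adjusted p = 0.872) and -0.01 in layer 6 (0.33, adjusted p = 0.981) by limma, beside 10.4% of genes called higher and 6.65% lower in layer 2/3 and 12.3% and 18.4% in layer 6. The C1s1 values were -0.46 (0.21, adjusted p = 0.168) and 0.25 (0.21, adjusted p = 0.427), and without WT of the 96-well plates layer 2/3 was called lower (-0.68, adjusted p = 0.0301). For C1rb layer 6 was called higher without Ehmt1 Δ/+; iTg (0.56, adjusted p = 0.0288) by limma.

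**Figure D2:**
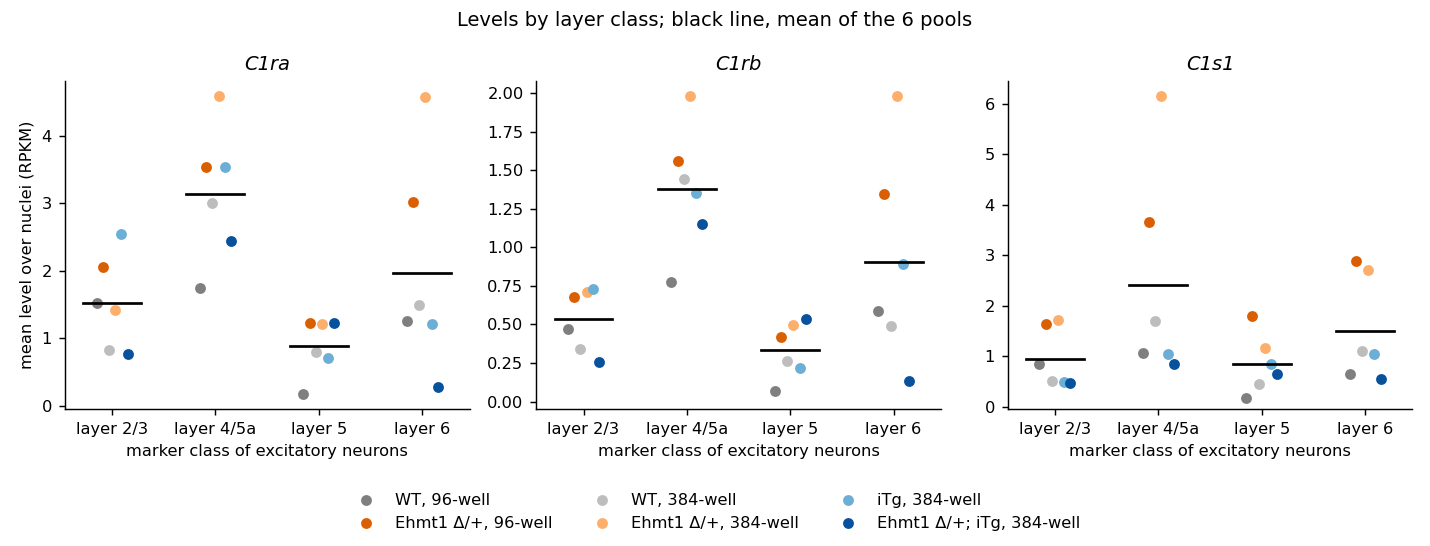
The mean level (RPKM, linear axes that differ between panels) of C1ra, C1rb and C1s1 is plotted for 4 marker classes of excitatory neurons. Each point is a pool and the black line is the mean of the 6 pools. C1ra is higher in layer 4/5a than in layer 5 in each pool, for example 3.00 against 0.7997 RPKM in WT of the 384-well plates.

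The genotype contrast in neurons is the one by which the 3 genes were selected, and it is given here as values. In the 96-well plates C1s1 stood at 0.556 RPKM (WT) and 2.07 RPKM (Ehmt1 Δ/+), a log2 ratio of 1.72 after addition of 0.1. In the 384-well plates it stood at 0.686 and 2.40 RPKM, a log2 ratio of 1.67. The log2 ratio of C1ra was 1.09 and 1.03 in the 2 plate formats and that of C1rb was 1.0007 and 1.03. C1rb was at 0.362 and 0.825 RPKM in the 96-well plates and at 0.461 and 1.043 RPKM in the 384-well plates. A ratio of 2-fold or more in both plate formats was reached by 22 of 23853 genes (0.0922%), in the 96-well plates by 0.352% and in the 384-well plates by 0.386%, and nothing is read from this since the members were chosen for it. C1rb lies just inside 2-fold, and of the closest relatives on the same chromosome C1s2 (0.47 and 0.33) and C1rl (-0.11 and 0.62) lie outside.
More neurons were positive in the nuclei labelled Ehmt1 Δ/+. In the 96-well plates C1ra was above 0 in 33 WT neurons (13.04%, exact 95% interval 9.15% to 17.8%) and in 81 Ehmt1 Δ/+ neurons (30.6%, 25.1% to 36.5%). In the 384-well plates the counts were 46 (16.1%, 12.1% to 20.9%) and 78 (25.5%, 20.7% to 30.8%). C1s1 was above 0 in 26 (10.3%) and 59 (22.3%) neurons of the 96-well plates and in 38 (13.3%) and 67 (21.9%) of the 384-well plates. C1s1-positive neurons also held more C1s1, at 5.41 RPKM over positive WT nuclei and 9.28 RPKM over positive Ehmt1 Δ/+ nuclei in the 96-well plates and at 5.14 and 10.96 RPKM in the 384-well plates. For C1ra the positive nuclei were at 6.90 and 6.64 RPKM and at 6.82 and 9.25 RPKM. The median positive neuron held 3 C1s1 reads in WT and 6.5 in Ehmt1 Δ/+ of the 96-well plates.
The ratios kept their size when the whole-read part of each value was used alone, at 1.73 and 1.72 for C1s1, 1.10 and 1.05 for C1ra and 0.97 and 1.07 for C1rb in the 96-well and 384-well plates. With C1ra and C1rb summed they were 1.12 and 1.08. The title of each nucleus carries a code whose meaning the labels do not give. Within the 3 codes of the 96-well plates that both genotypes share, the log2 ratio was 1.23, 1.81 and 1.81 for C1s1, 1.57, 1.24 and 0.53 for C1ra and 1.41, 1.16 and 0.45 for C1rb. In the 384-well plates all WT nuclei carried a different code from the nuclei of the other 3 genotypes, so code and genotype cannot be told apart for ratios to WT there.
Inhibitory neurons made up 24.5% of WT and 16.2% of Ehmt1 Δ/+ neurons in the 96-well plates and 25.6% and 16.99% in the 384-well plates, and they hold little of the members. In excitatory neurons alone the log2 ratio was 1.70 and 1.59 for C1s1, 0.98 and 0.91 for C1ra and 0.92 and 0.91 for C1rb. All 4 layer classes had C1s1 higher in Ehmt1 Δ/+ than in WT of both plate formats, with log2 ratios from 0.89 (layer 2/3, 96-well) to 2.81 (layer 5, 96-well). In inhibitory neurons C1s1 went the other way (-0.84 and -0.59), over 11 positive nuclei in the 4 pools.
In glia the members were not part of the filtered fit of genotypes, since none passed the filter there, and no result of a fit without the filter is given for them. C1ra was above 0 in 3 of 36 WT microglia and 3 of 32 in Ehmt1 Δ/+ of the 96-well plates.

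**Figure D3:**
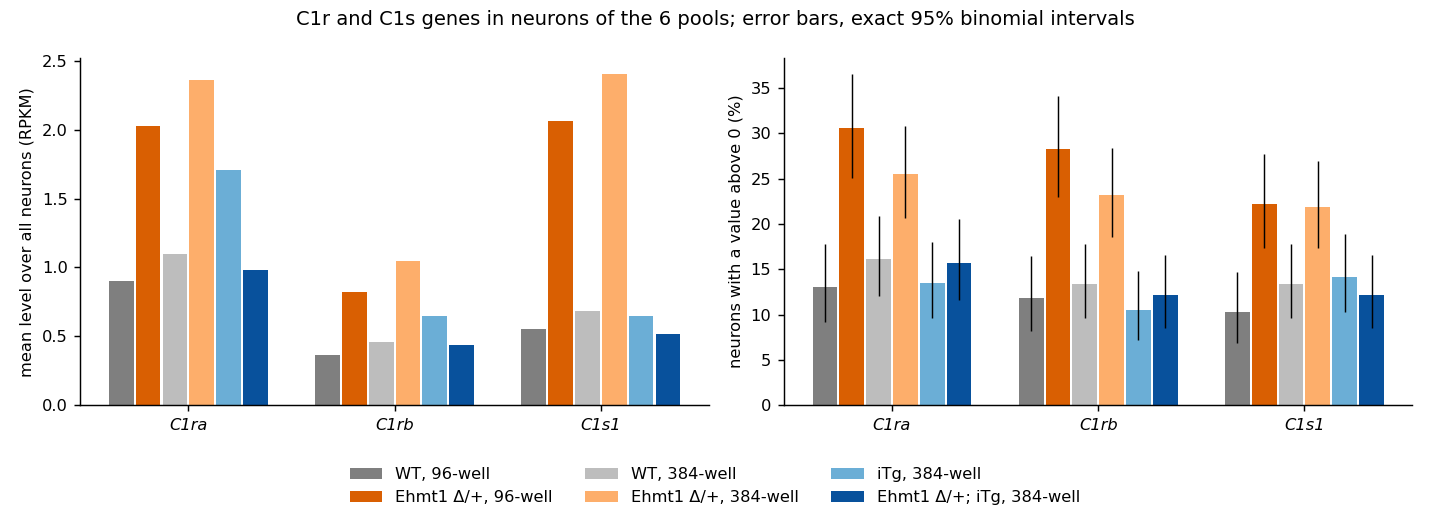
The mean level over all neurons (left, RPKM) and the share of neurons with a value above 0 (right, percent, with exact 95% binomial intervals) are plotted for C1ra, C1rb and C1s1 in each of the 6 pools. C1s1 stands at 2.07 and 2.40 RPKM in both pools labelled Ehmt1 Δ/+ and between 0.520 and 0.686 RPKM in the other 4 pools.

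The 384-well plates also held neurons labelled as carrying CamKII-CreER. Their Ehmt1 level was 20.7 RPKM in iTg against 19.5 RPKM in WT, and 33.9 RPKM in Ehmt1 Δ/+; iTg against 31.7 RPKM in Ehmt1 Δ/+, and the recombined product was not measured apart. C1s1 was at 0.520 RPKM in Ehmt1 Δ/+; iTg neurons against 2.40 RPKM in Ehmt1 Δ/+, a log2 ratio of -2.01, and 0.651 RPKM in iTg neurons against 0.686 RPKM in WT (-0.07). The share of neurons with C1s1 was 12.1% in Ehmt1 Δ/+; iTg (34 nuclei, exact 95% interval 8.56% to 16.6%) and 21.9% in Ehmt1 Δ/+ (67 nuclei, 17.4% to 26.95%), with intervals that cover counting error within 1 pool each. C1ra had a log2 ratio of -1.19 and C1rb of -1.10 for Ehmt1 Δ/+; iTg to Ehmt1 Δ/+, where 0.628% of 24375 genes were 2-fold lower. These pools shared a title code. With 1 pool per genotype the ratios have no replicate check, and the Ehmt1 Δ/+ pool is also the one in which the members were chosen to be high.
iTg neurons held C1ra at 1.70 RPKM, above WT at 1.10 RPKM (log2 ratio 0.59), although fewer of them were positive, at 37 (13.5%) against 46 (16.1%). The positive iTg neurons were at 12.7 RPKM and the positive WT neurons at 6.82 RPKM. C1rb moved with it (0.42) and C1s1 did not, and none of the 3 reached 2-fold, which 0.227% of 24216 genes did in this contrast. Ehmt1 Δ/+; iTg neurons stood at -0.28 (C1s1), -0.74 (C1ra) and -0.49 (C1rb) on the log2 scale to iTg neurons and at -0.34, -0.15 and -0.07 to WT neurons. In these contrasts 0.547% of 24336 genes and 0.979% of 24831 genes were 2-fold lower, and none of the members was.
By layer class the log2 ratio of Ehmt1 Δ/+; iTg to Ehmt1 Δ/+ for C1s1 was -2.73 in layer 4/5a, -2.11 in layer 6, -1.68 in layer 2/3 and -0.77 in layer 5. C1ra was listed at nearly the same level in layer 5 of these pools (1.23 and 1.21 RPKM) and differed most in layer 6 (0.279 and 4.57 RPKM, with 4 of 60 and 22 of 58 nuclei positive).

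The members were often found in the same neurons. At least 1 of them was above 0 in 425 of 1664 neurons, and all 3 were in 8.65% of neurons. C1s1 and C1ra were both above 0 in 9.44% of neurons, against 3.32% from the product of their shares within each pool. By pool these were 13 nuclei against 3.39 in WT and 44 against 18 in Ehmt1 Δ/+ of the 96-well plates, and 18 against 6.13, 20 against 5.25, 47 against 17.1 and 15 against 5.34 in WT, iTg, Ehmt1 Δ/+ and Ehmt1 Δ/+; iTg of the 384-well plates, an excess in each of the 6 pools. C1s1 shares no 75-base window with the C1r genes. Both genes favour excitatory neurons, and depth varies between neurons, and their parts in this excess were not tested. C1s1 was found without the others in 6.37% of neurons and C1ra in 29 neurons.
Neurons with a member above 0 were 89.1% to 100% excitatory over the 6 pools, against 68% to 77.4% of the other neurons. Their depth was close, with medians of 327290 to 414368 reads and of 319498 to 391779 reads. Summed astrocyte markers were at 7.10 to 11.3 RPKM in the positive and at 10.8 to 15.1 RPKM in the other neurons, over 6 markers. The share with 2 or more of them was 52.2% in positive and 52.7% in other WT neurons of the 96-well plates. It was 37.5% and 27.8% in Ehmt1 Δ/+ there. In the 384-well plates it was 39.4% and 23.7% (WT), 26.8% and 22.8% (iTg), 35.7% and 25% (Ehmt1 Δ/+), 39.7% and 24% (Ehmt1 Δ/+; iTg). Of the astrocyte markers Slc4a4 alone was at 7.47 to 12.1 RPKM over all neurons. Aldh1l1, Slc1a3, Gfap, Aqp4 and Gja1 were at most 2.30, 0.807, 0.523, 0.275 and 0.209 RPKM. Summed endothelial markers (4 genes) were at most 0.209 RPKM and fibroblast markers (5 genes, with up to 4 of them at 0) at most 0.210 RPKM in the positive neurons. The mural list (4 genes) was at 0.228 to 1.40 RPKM in the positive and 0.370 to 0.894 RPKM in the other neurons. It was lower in positive neurons of WT and Ehmt1 Δ/+; iTg of the 384-well plates and higher in those of the other pools. The microglial list (6 genes) was at 6.77 to 12.6 RPKM in the positive and 6.70 to 11.4 RPKM in the other neurons. The oligodendrocyte list (5 genes) was at 8.53 to 15.6 and 6.79 to 13.7 RPKM, and was higher in the positive neurons of each pool. Without neurons that held 2 or more markers of astrocytes, endothelial, mural or fibroblast cells, which left out 55.7% of WT and 31.7% of Ehmt1 Δ/+ neurons of the 96-well plates and 27.7% and 29.4% of those of the 384-well plates, the log2 ratio of Ehmt1 Δ/+ to WT was 1.55 and 2.27 for C1s1, 0.80 and 1.21 for C1ra and 0.74 and 1.35 for C1rb.

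The genes beside the cluster were read for the same genotype contrast, and since the members were chosen for theirs, no difference from them was tested. The 4 nearest named protein-coding genes on each side had log2 ratios of Ehmt1 Δ/+ to WT between -0.12 and 0.62 in neurons of both plate formats. The nearest, C1rl, which encodes a C1r-like protease, ends 1.76 kb before C1ra and was at 0.0799 and 0.0665 RPKM in WT and Ehmt1 Δ/+ neurons of the 96-well plates and at 0.0645 and 0.153 RPKM in the 384-well plates. Clstn3, a synaptic adhesion gene 47.6 kb from C1ra, was at 60.2, 57.7, 74.5 and 78.6 RPKM in the same pools. C1s2, 43.5 kb beyond C1rb, was at 0.311, 0.470, 0.325 and 0.436 RPKM, higher in Ehmt1 Δ/+ in both plate formats, and part of its sequence is shared with C1s1.
C1rl also had another cell type pattern. It was at 0.937 to 6.20 RPKM in microglia, listed at 0 in all oligodendrocytes and at 0.0645 to 0.231 RPKM in neurons. Its log2 difference of neurons from microglia was -3.68 (standard error 0.37) by limma. C1rl entered this fit through microglia alone, so no p is given. By these levels C1rl lay on the microglial side while the adjacent C1ra lay on the neuronal side.

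**Figure D4:**
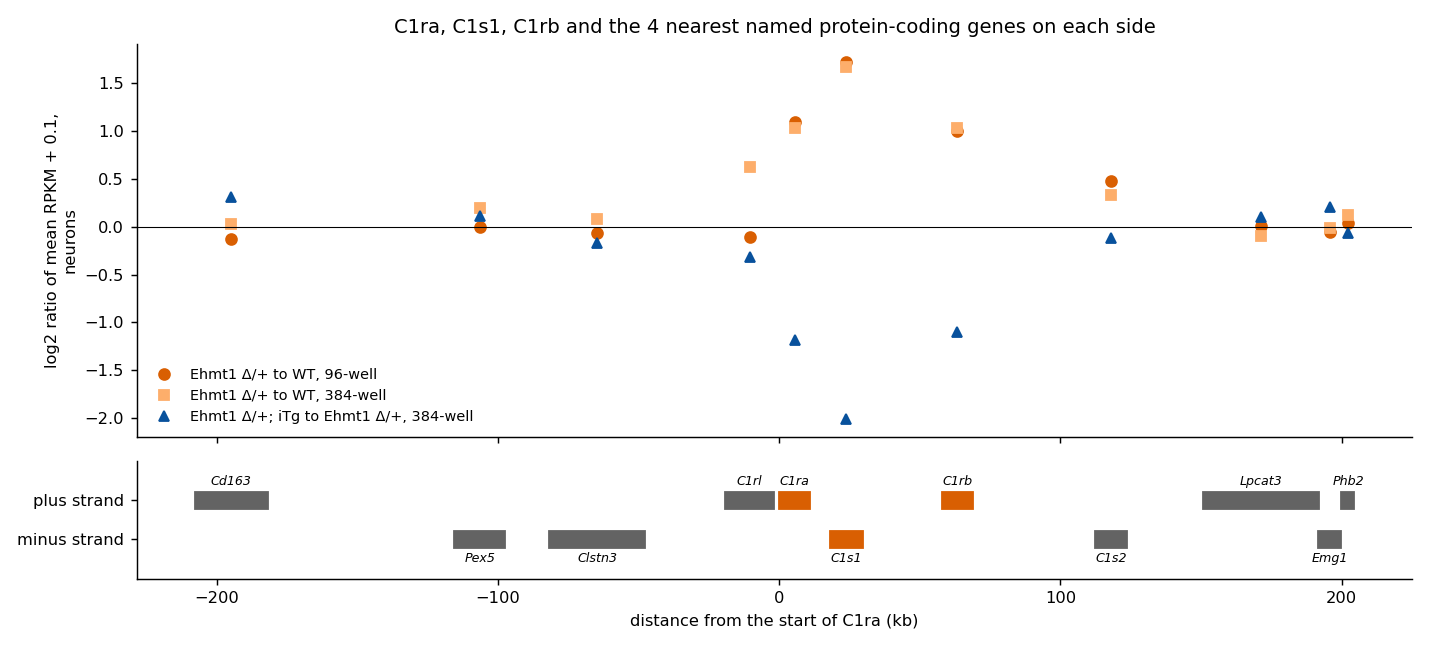
The upper panel plots log2 ratios of mean RPKM + 0.1 in neurons for C1ra, C1s1, C1rb and the 4 nearest named protein-coding genes on each side, at the middle of each gene, and the lower panel draws the genes to scale by strand with distance from the start of C1ra in kb. The 3 members stand between 1.0007 and 1.72 for Ehmt1 Δ/+ to WT while the 8 neighbours stand between -0.12 and 0.62.

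The other complement genes were read from a list of 40 genes, all of which were found in the tables. C1qa, C1qb and C1qc, whose products bind C1r and C1s, were at medians of 195.8, 506 and 190 RPKM over the 6 pools in microglia and at most 0.388 RPKM in neurons. Neurons fell below microglia by 10.1, 11.3 and 10.3 on the log2 scale for them by limma. The C1q genes entered this fit through microglia alone, so no p is given for them. Of the substrates of C1s, C4b was at 11.4 to 36.8 RPKM in oligodendrocytes and 0.341 to 0.678 RPKM in neurons, and C2 at 0.412 to 0.615 RPKM in neurons.
C7, a component of the membrane attack complex, was like the members in its cell types and neuron classes. Other list genes, below the level at which genes were named, were also listed at 0 in all glia, such as C8b (at most 0.398 RPKM in neurons). C7 was at 0.939 to 2.37 RPKM in neurons and listed at 0 in every glial pool, and it was higher in excitatory than in inhibitory neurons by 3.41 (standard error 0.25, adjusted p = 8.50e-05 by limma). By layer it went the other way, being lower in layer 4/5a by -2.05 (0.19, adjusted p = 4.25e-07) and higher in layer 6 by 1.75 (0.19, adjusted p = 1.44e-06). C7 was singled out after its values were seen, so these p-values are not read as support.
Among the labelled cell types, the regulators clusterin (Clu, 9.08 to 13.8 RPKM) and Csmd1 (56.9 to 66.9 RPKM), and Cfp, the gene of properdin (32.8 to 55.1 RPKM), were highest in neurons. Astrocytes and other types without a label could not be compared. The receptor genes C3ar1 (7.07 to 36.8 RPKM) and C5ar1 (3.59 to 43.6 RPKM) and Itgam, which encodes a chain of complement receptor 3 (70.3 to 134.9 RPKM), were highest in microglia. Masp1 and Masp2, which encode the related proteases of the lectin pathway, were at 1.63 to 2.51 and 3.60 to 12.2 RPKM in neurons. Serping1, the gene of the inhibitor of C1r and C1s, is outside the level at which list genes were named and is given for its role: it was above 0 in 37 of 1664 neurons and at most 0.307 RPKM there.
Of 23 genes of the list tested, 7 were higher and 1 lower in neurons than in oligodendrocytes, beside 38.7% and 12.6% of all genes tested. The median log2 difference was 0.38, against 0.61 over all genes tested. In neurons against microglia 8 were higher and 7 lower (0.64 against 0.85), beside 44.8% and 19.3% of all genes. Between microglia and oligodendrocytes 8 were higher and 4 lower (0.20 against -0.08), beside 21.3% and 21.2% of all genes. Of 18 tested, 4 were higher and 3 lower in excitatory than in inhibitory neurons (0.05 against -0.02), beside 19.2% and 21.3%. By layer class, of 21 tested, 2 rose and 2 fell in layer 2/3, beside 10.4% and 6.65% of all genes. In layer 4/5a 1 rose and 3 fell (all genes 13.1% and 14.6%). The counts were 2 and 1 in layer 5 (9.12% and 5.35%) and 3 and 2 in layer 6 (12.3% and 18.4%).
Between Ehmt1 Δ/+ and WT neurons, 0 of 17 genes of the list were called by limma over 4 pools with plate format as a block (median log2 difference -0.02, against -0.03 over all genes), as were 0 of all 23853 genes, of which 761 were higher and 1667 lower at an unadjusted p under 0.05. This fit has 1 residual degree of freedom. C7 was at 1.33 and 2.37 RPKM in WT and Ehmt1 Δ/+ of the 96-well plates and at 1.042 and 1.96 RPKM in the 384-well plates (0.82, standard error 0.10, adjusted p = 0.461). C3ar1 was at 0.361 and 0.641 RPKM and at 0.207 and 0.450 RPKM (0.76, 0.11, adjusted p = 0.461). In glia 0 of 13 list genes were called in oligodendrocytes and 0 of 15 in microglia, where limma called 0 of 12832 and 0 of 13686 genes. At an unadjusted p under 0.05, 1.68% of genes were higher and 3.04% lower in oligodendrocytes and 0.899% higher and 1.03% lower in microglia.

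**Figure D5:**
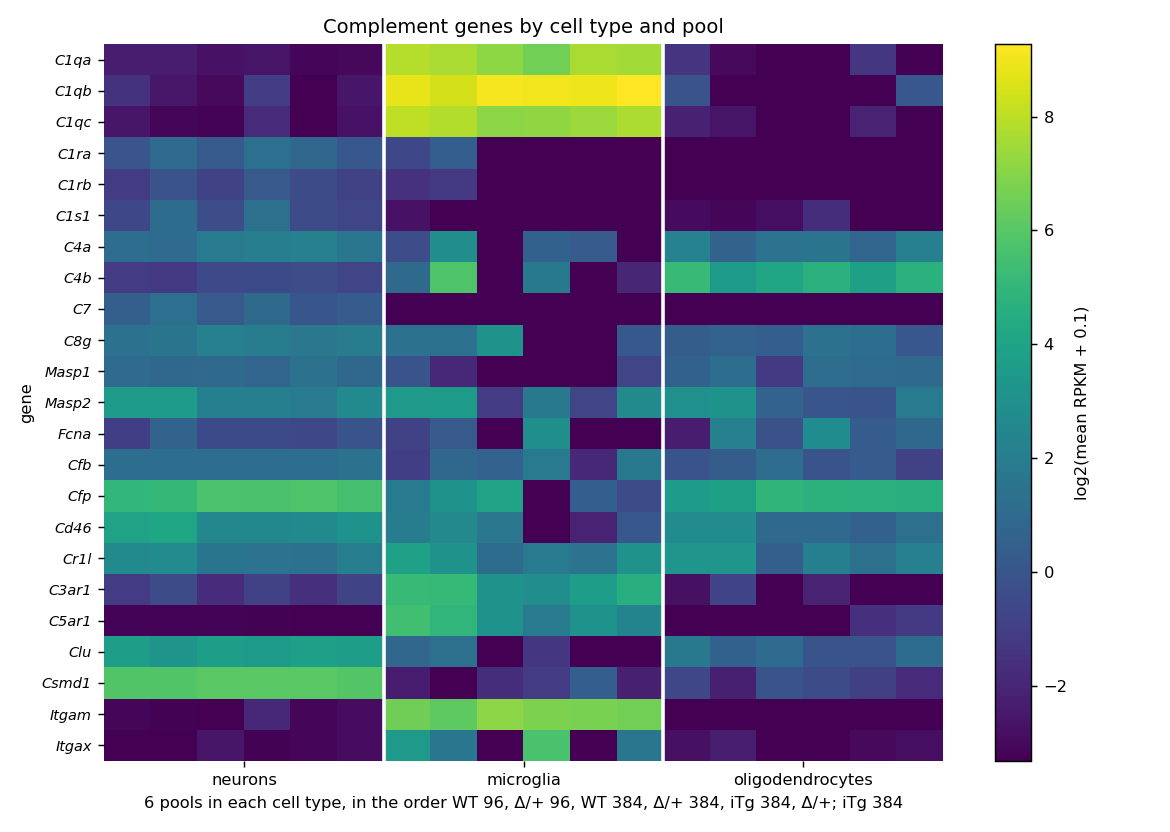
The colour gives log2(mean RPKM + 0.1) of the 3 members and of other complement genes with a mean above 1 RPKM in a cell type of most pools (rows), in the 6 pools of neurons, microglia and oligodendrocytes (columns). C1qa, C1qb and C1qc are bright in microglia alone, at medians of 195.8, 506 and 190 RPKM, while C1ra, C1rb and C1s1 are above the floor in every pool of neurons.

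The genes whose levels most resembled those of the members were ranked by Pearson correlation of log2(mean RPKM + 0.1), as a description across means that share pools. Over the 18 means of pool and cell type and 13675 genes, C1s1 was closest to Clec18a (0.96), Echdc2, Dzip1l, Arpp21 and Lrrtm4 (0.94). C1ra was closest to Mir874 (0.98), Mir804, Arhgap42, Amhr2 and Mir7657 (0.94), and C1rb to Mir874, Arhgap42, Cdh7, Amhr2 and Syt16. Over the 36 means of pool and neuron subclass and 13130 genes, C1s1 was closest to Cap2 (0.88), Antxr1, Fam53b, Ptpn3 and Emx1, C1ra to Cabp1 (0.93), Ntn5, Fxyd1, Lgi4 and Cap2, and C1rb to Cabp1 (0.91), Fam53b, Lrrc57, Cap2 and Antxr1. Between the members themselves, C1s1 and C1ra had a correlation of 0.81 over the 18 and 0.93 over the 36 means, and C1ra and C1rb, which share reads, of 0.99 and 0.98. C1s1 and C1s2 had 0.51 on both scales.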

How the data were processed

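Nuclei of mouse frontal cortex were sorted by DAPI and sequenced by RamDA-seq. According to the methods of the study, reads were trimmed and mapped to mm10, nuclei of poor quality were dropped, genes of a Gencode annotation were counted with featureCounts under default parameters, and clusters were given cell types from marker genes. The submitters' processing notes name HISAT2 2.0.4 and Subread 1.5.0. The authors scaled the counts to RPKM and deposited a table of 52636 genes for each plate format. Every value column matched 1 nucleus by name, and cell type and genotype were taken from the labels. How the authors treated doublets is not given in the sources used here, and no doublet caller was run.

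The members and gene lists were chosen with earlier results of these data known. A gene table paired 52403 of the 52636 rows with symbols. Lengths came from GENCODE M21 for 49121 genes, and the reads of each nucleus were recovered from its low values, so that a value could be written in reads (whole within 0.02 reads). Because 49.5% to 55.5% of the members' values above 0 were not whole reads, no count test was run. How the fractions arose is not given in the sources used here. Levels were averaged per pool and class, and log2(mean RPKM + 0.1) was tested by limma 3.58.1 (R 4.3.3) across all genes above 0 in 10% of the nuclei of a class in 3 or more pools, with Benjamini-Hochberg adjustment at 0.05. Pool was the block for cell types, neuron classes and layers, since cell types of a pool come from the same mice, and plate format for genotypes. Shares were compared after thinning to the 10th percentile of the read totals of all nuclei in each plate format, by the exact permutation test over pools. Where a genotype has 1 pool per plate format, ratios have no test.

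List genes were named where their mean was above 1 RPKM in a cell type of most pools, and genes like a member by the 5 highest correlations. Genes outside these rules are said to be so, and 1 gene within them is not reported here. Alternatives were other pseudocounts, no filter, scaling to the same median, limma with an intensity trend, stricter neuron classes, single plate formats, no block and leaving out each pool. The whole-read part of each value, and the repeats of the ratio of Ehmt1 Δ/+; iTg to Ehmt1 Δ/+ under other settings, were chosen after seeing the data. Scripts were tested on simulated data. Coding sequences were read from the GENCODE M21 transcripts and promoters from RefSeq (GRCm38.p6), and no protein sequence was used here. Analyses used Python 3.11.15, NumPy 2.4.6, pandas 2.3.3, SciPy 1.17.1, Matplotlib 3.10.9 and Biopython 1.88.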

Additional observations from a re-analysis of the deposited data

Results flagged for a closer look

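Of 24 sets of pool values examined for a pool far from the rest, 3 had one. The pools differ in genotype and plate format, the layer sets share values, and the members were chosen to be high in Ehmt1 Δ/+ neurons. No number expected by chance is therefore given. The log2 level of C1s1 in neurons minus oligodendrocytes was 4.24 in Ehmt1 Δ/+ of the 96-well plates, and the other 5 pools lay between 2.33 and 3.01. That of C1s1 in microglia minus oligodendrocytes was -1.64 in Ehmt1 Δ/+ of the 384-well plates, where 2 oligodendrocytes and 0 microglia held C1s1, and the other pools lay between -0.45 and 0.24. C1s1 in layer 2/3 minus the mean of the other layers was 0.61 in WT of the 96-well plates, which had 5 positive nuclei there, and -0.87 to -0.43 in the other pools.

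C1s1 moved in opposite directions in the main classes of neurons between genotypes. Its log2 ratio of Ehmt1 Δ/+ to WT was -0.84 in inhibitory and 1.70 in excitatory neurons of the 96-well plates, and -0.59 and 1.59 in those of the 384-well plates. The inhibitory values rest on 11 nuclei with C1s1, and the difference between the classes was not tested.

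The contrast of the deletion label also had opposite signs with and without CamKII-CreER in the label in the 384-well plates. Ehmt1 Δ/+; iTg to iTg gave -0.28 for C1s1, -0.74 for C1ra and -0.49 for C1rb, while Ehmt1 Δ/+ to WT gave 1.67, 1.03 and 1.03. Each genotype is 1 pool there, the second contrast is the one that chose the genes, and the difference was not tested.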

How the results depend on the processing

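Of 616 values under alternatives, 510 kept their direction and their side of the threshold or moved by less than the spread, 64 were no longer called, 4 became called, 24 moved and 14 changed sign.

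With the 96-well pools alone by limma, the difference of neurons from microglia was 0.60 for C1ra (adjusted p = 0.233) and 0.74 for C1rb (0.126). That of microglia from oligodendrocytes was 0.022 for C1s1, 3.26 for C1ra and 1.97 for C1rb. That of excitatory from inhibitory neurons was 3.14 for C1s1. Layer 4/5a was at 0.91, 0.97 and 1.06 and layer 5 at -1.15, -1.85 and -1.67 for C1s1, C1ra and C1rb, none of them called, and C1ra was at 0.34 in layer 2/3 and 0.53 in layer 6. With the 384-well pools alone layer 5 was at -0.55, -0.80 and -0.92 for C1s1, C1ra and C1rb, not called, and C1rb at -0.018 in layer 6. With no replicate block, so that layers of a pool were not paired, layer 4/5a stayed at 0.96 for C1s1 (adjusted p = 0.192), and layer 5 at -0.75, -1.15 and -1.17 for C1s1, C1ra and C1rb, all without a call. With nuclei whose layer score led by 0.5 or more, layer 5 was at -0.55 for C1s1 (adjusted p = 0.284) and layer 6 at 0.10 for C1ra. C1ra in layer 6 was also at 0.0168 with a pseudocount of 1 and at 0.0583 after scaling to the same median. With an intensity trend limma called 2 genes between genotypes in oligodendrocytes, against 0 without it.

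Averaged over the plate formats, the log2 ratio of Ehmt1 Δ/+ to WT neurons was 1.70 for C1s1, 1.06 for C1ra and 1.01 for C1rb. It was 1.64, 0.94 and 0.91 in excitatory neurons alone and -0.71, -0.35 and -0.042 in inhibitory neurons alone. It was 1.83, 1.13 and 1.16 with a pseudocount of 0.01 and 0.995, 0.68 and 0.45 with 1. Shares at matched depth gave 1.10 for C1s1 and 1.195 for C1rb, the shared title codes of the 96-well plates 1.64 for C1s1, the sum of C1ra and C1rb 1.10, and neurons without markers of other cell types 1.91, 1.004 and 1.05. The ratio of Ehmt1 Δ/+; iTg to Ehmt1 Δ/+ was -2.19 for C1s1 and -1.25 for C1rb with a pseudocount of 0.01, -1.16, -0.76 and -0.51 for C1s1, C1ra and C1rb with 1, and -2.12 for C1s1 and -1.28 for C1rb without neurons with markers of other cell types. Apart from construction (fewer pools, fewer nuclei, another pseudocount), the cause of these shifts was not tested.

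Leaving out each pool in turn gave -0.68 to -0.38 (C1s1) and -0.32 to 0.0595 (C1ra) in layer 2/3, where C1s1 was called without WT of the 96-well plates and C1ra was above 0 without WT or Ehmt1 Δ/+ of the 384-well plates. In layer 5 it gave -0.91 to -0.54 for C1s1, which lost its call without WT or Ehmt1 Δ/+ of either plate format, -1.48 to -0.87 for C1ra, which lost it in 5 of 6 fits, and -1.49 to -0.99 for C1rb. In layer 6 it gave -0.25 to 0.37 for C1ra, above 0 without iTg or Ehmt1 Δ/+; iTg, and 0.0497 to 0.56 for C1rb, called without Ehmt1 Δ/+; iTg. The excess of the neuronal share over oligodendrocytes was 6.56 to 10.2 percentage points for C1s1, 11.004 to 15.6 for C1ra and 6.79 to 11.6 for C1rb, and over microglia 7.46 to 11.03, 9.34 to 12.7 and 5.41 to 8.47. The exact permutation p was 0.0625 throughout, the smallest that 5 pools allow. The calls of C1s1, C1ra and C1rb in layer 4/5a held whichever pool was left out.

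Glial depth in the 384-well plates limits any statement on low levels in glia, and the copies C1ra and C1rb are uncertain apart from each other.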
